A study of Boehmeria nivea with 2 samples.

Results

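Starch and sucrose metabolism was represented by 101 of the 46,533 unigenes assembled from ramie leaves. A unigene is an assembled transcript cluster that stands for a gene. Members were chosen by the name of their best Swiss-Prot hit, which had to contain starch, beta-amylase, alpha-amylase, glucose-1-phosphate adenylyltransferase, sucrose synthase, sucrose-phosphat, invertase, beta-fructofuranosidase, trehalose, galactinol, raffinose, isoamylase or phosphoglucan, and 5 inhibitors were dropped. The search itself used names only and no expression value, but the list was chosen with earlier results of these data known. Gene names are those of a hit in another species, and activity in ramie was not measured. All 101 best hits in Nr, the NCBI protein collection, were to eudicots.

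Leaf RNA came from the cultivar Chuanzhu No.8, which the study describes as moderately resistant to the ramie moth (RM), *Cocytodes coerulea*. In the challenged group (CH), 2 larvae of stage J2, fasted for 12 h, were placed on leaf 4 from the shoot apex of 30-day-old plants. Control plants (CK) carried no larvae according to the sampling notes, although the title of that sample calls them mock-challenged. From both groups the topmost undamaged 2 leaves, not the leaf that received larvae, were taken at 12, 24, 48 and 72 h. At each time point leaves of 5 plants were pooled, and RNA of the 4 times was mixed equally into 1 library per group, so differences between plants and between times were not measured. Counted fragments, called reads here, numbered 26,938,918 in CH and 17,800,062 in CK.

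Leaves make starch in the chloroplast from ADP-glucose by day and break it down at night, while sucrose is made in the cytosol and exported through the phloem. Sucrose is cleaved by invertases and sucrose synthases, and trehalose 6-phosphate serves as a signal of sucrose status. Raffinose and its relatives are built from sucrose with galactose donated by galactinol, and they accumulate in many plants under cold, drought or other stress.

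Levels between genes were compared in RPKM, reads scaled to the length of the unigene and to the size of the library. Each fold is the ratio of reads per library total, followed by its exact 95% Clopper-Pearson interval. The intervals cover counting error only. Calls required an adjusted p below 0.01 in the 2-sided Audic-Claverie test, adjusted over the whole table of detected unigenes, together with an RPKM ratio of 2 or more in either direction. With 1 library in each group no difference had a replicate check, and the test compared these libraries rather than the conditions.

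Of the 100 members with at least 1 read, 7 were called higher in CH (7%) and 17 lower (17%). Among all 43,302 unigenes with at least 1 read the same calls covered 2.48% and 4.28%. At least 10 reads fell on 77 members, of which 9.09% were higher and 22.1% lower, beside 4.54% and 7.71% of all unigenes at that depth. The remaining 53 of these 77 were not called. With at least 50 reads, 72 members were left, 9.72% of them higher and 23.6% lower, against 5.11% and 9.26% of all unigenes. The lower members came from 15 assembled components and the higher ones from 7. Fewer cells of a type and less RNA per cell cannot be told apart in these leaf pools.

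The median log2 ratio of RPKM, CH over CK, was -0.10 over the 77 members, with quartiles of -0.97 and 0.45. Over all unigenes with at least 10 reads it was -0.02, with quartiles of -0.51 and 0.40. The ratio was above 0 for 33 members and below 0 for 44. The quartiles of the members lay farther apart than those of all unigenes, while the medians lay close together.

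**Figure D1:**
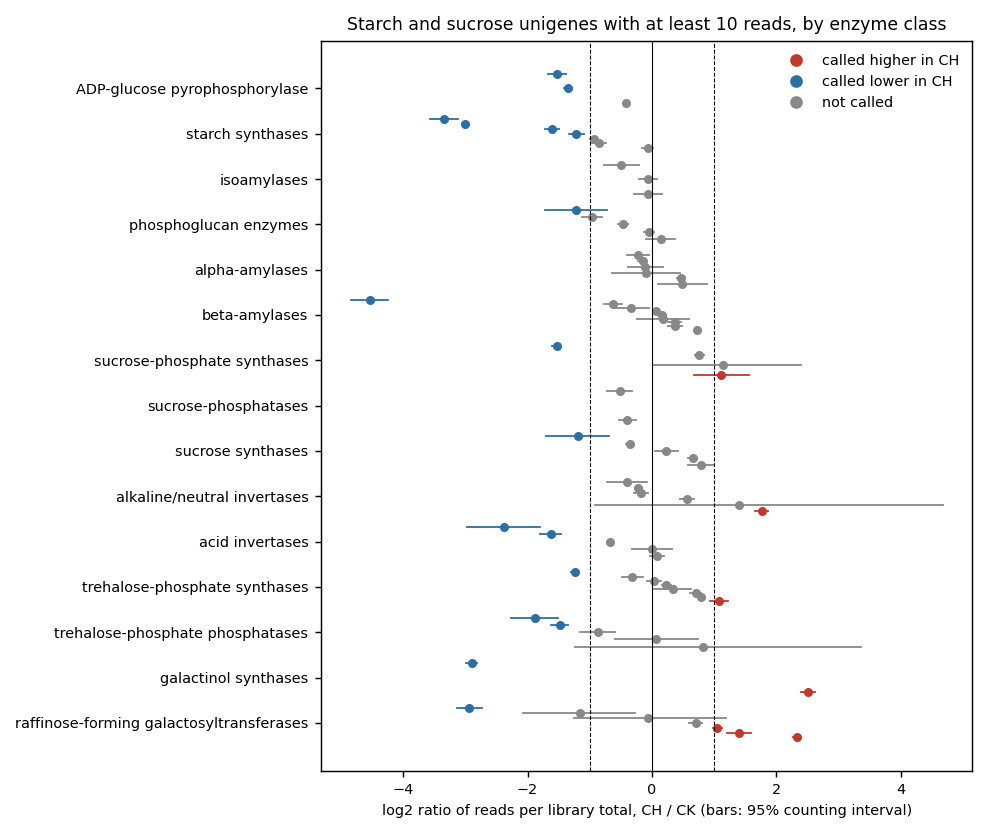
Each point is a member with at least 10 reads, placed by the log2 ratio of its reads per library total in CH over CK, with its 95% counting interval as a bar, 1 library per group. Dashed lines mark a 2-fold difference, and the calls also required a 2-fold difference in RPKM. All 7 unigenes named starch synthase lie left of 0, but the interval of comp36286_c0 crosses 0. The 2 galactinol synthases lie far apart on opposite sides.

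All members together held 177,829 reads in CH and 138,051 reads in CK, which is 0.660% of the CH reads (0.657 to 0.663) and 0.776% of the CK reads (0.771 to 0.780). Their summed reads per library total stood at a ratio of 0.851, CH over CK (0.845 to 0.857). That ratio nets large moves in both directions. Without the granule-bound starch synthase comp37051_c1, left out after its values were seen, it was 0.993 (0.986 to 1.00). The unigene comp38688_c1 moved the other way, with 22,008 reads in CH and 2901 reads in CK, and was kept. A net ratio near 1 therefore does not mean that the remaining members were unchanged.

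The most abundant members were different enzymes in the 2 libraries. In CH the highest was a unigene named galactinol--sucrose galactosyltransferase 6, comp38688_c1, at 300.1 RPKM. It was followed by beta-amylase 3 (comp37791_c0) at 163 RPKM and galactinol synthase 2 (comp32441_c0) at 143 RPKM. In CK the granule-bound starch synthase comp37051_c1 led at 615 RPKM, followed by its partner contig comp37051_c0 at 259 RPKM and galactinol synthase 1 (comp32459_c0) at 199 RPKM. A level of 100 RPKM was reached by 7 members in CH and by 9 members in CK.

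**Figure D2:**
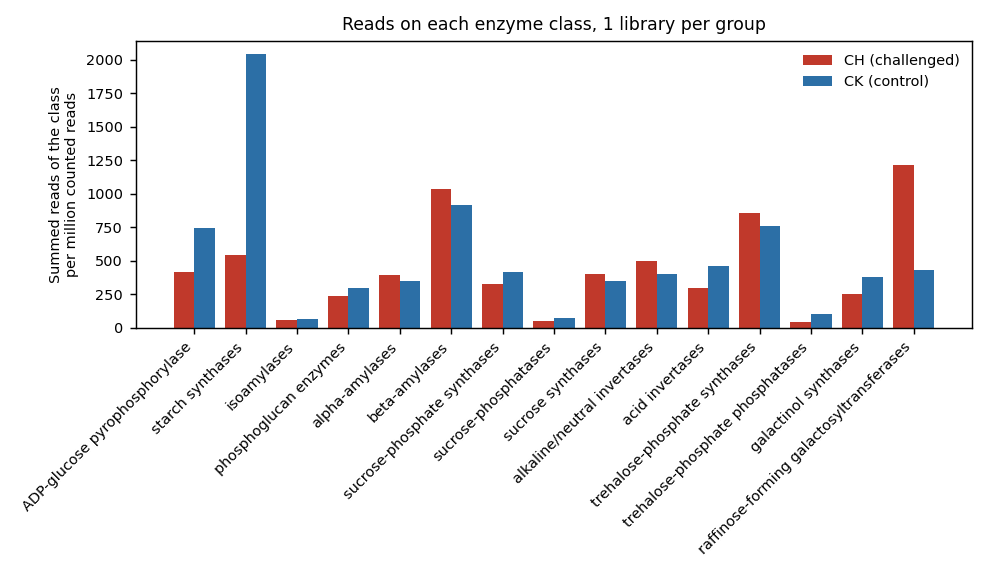
Bars give the summed reads of each enzyme class per 1,000,000 counted reads, in CH and in CK, from 1 library per group. Starch synthases stood at 541 in CH and 2038 in CK, and the class labelled raffinose-forming galactosyltransferases at 1213 in CH and 432 in CK.

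Starch synthesis held 6 of the 17 lower calls. ADP-glucose pyrophosphorylase, which makes the glucosyl donor of starch, and the starch synthases together had 10 members with at least 10 reads. In RPKM all 10 were lower in CH than in CK. Of these, 6 were called lower, and none was called higher. The 10 include comp36286_c0, whose other database hits name no starch synthase. Its ratio of reads was 0.952 (0.892 to 1.02), so no direction could be read for it. Summed over all 16 members of both classes, reads were 25,711 in CH and 49,500 in CK. This was 2.91-fold lower in CH (2.87 to 2.96). Transcripts of the photosynthetic machinery, which mark leaf mesophyll, were lower in the same library: rubisco small subunit, rubisco activase, chlorophyll a-b binding proteins and photosystem subunits, 161 unigenes in all, held 5.32% of the CH reads and 11.5% of the CK reads, with 0 called higher and 30 called lower. The lower calls were 19.4% of the 155 markers with at least 1 read, beside 4.28% of all such unigenes. The share of all unigenes rose with depth, to 7.71% with at least 10 reads and 9.26% with at least 50. The markers were not split by depth. The rubisco small subunit was at 0.337% of reads in CH and 1.44% in CK, so the leaf label was borne out in both libraries, at unequal levels. The part of this difference in the starch values was not tested.

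Granule-bound starch synthase makes amylose, the mostly linear fraction of starch. Its unigene comp37051_c1 had 4283 reads (76.8 RPKM) in CH and 22,614 reads (615 RPKM) in CK, 7.99-fold lower in CH (7.73 to 8.26). The short contig comp37051_c0, 369 bases long and from the same component, had 191 reads (25.2 RPKM) in CH and 1275 reads (259 RPKM) in CK, 10.1-fold lower (8.67 to 11.8). Both fell in CH, but contigs of a component or of a gene family can share reads. They are therefore not taken as independent genes, although both stay in the counts of calls. The Nr hit of comp37051_c0 names a UDP-glycosyltransferase, while its KEGG ortholog is the same as that of comp37051_c1. A further unigene with this name, comp36286_c0, had 2241 reads (40.5 RPKM) in CH and 1555 reads (42.6 RPKM) in CK and was not called. Its KEGG hit names a sulfoquinovosyltransferase and its Nr hit a GDP-mannose-dependent alpha-mannosyltransferase. Neither is a starch synthase, but the unigene stays in the counts and sums of that class.

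The soluble starch synthases lengthen the chains of amylopectin, the branched fraction. Starch synthase 1 (comp35787_c1) had 1005 reads (18.6 RPKM) in CH and 2021 reads (56.8 RPKM) in CK, 3.04-fold lower in CH (2.82 to 3.29). Starch synthase 4, which starts new granules in Arabidopsis, matched a pair of unigenes. Of these, comp30394_c1 fell in CH, with 914 reads (15.5 RPKM) in CH and 1405 reads (33.7 RPKM) in CK, 2.33-fold lower (2.14 to 2.53). The other, comp38265_c2, had 1328 reads (23.1 RPKM) in CH and 1583 reads (41.3 RPKM) in CK, a 1.80-fold difference (1.68 to 1.94) under the threshold. Starch synthase 3 (comp29511_c0) was just under it as well, at 4611 reads (59.1 RPKM) in CH and 5829 reads (117.6 RPKM) in CK, 1.91-fold (1.84 to 1.99). With the lower level of comp37051_c1, that unigene held 29.4% of the starch synthase reads in CH and 62.3% in CK.

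ADP-glucose pyrophosphorylase is built of large and small subunits. The small subunit comp37594_c0 had 3361 reads (63.1 RPKM) in CH and 5676 reads (162 RPKM) in CK, 2.56-fold lower in CH (2.45 to 2.67). A large subunit, comp38389_c0, had 646 reads (13.2 RPKM) in CH and 1230 reads (38.0 RPKM) in CK, 2.88-fold lower (2.62 to 3.17). Both fell in CH. The other large subunit, comp27247_c0, held most large-subunit reads and was not called, with 7122 reads (75.3 RPKM) in CH and 6307 reads (101 RPKM) in CK. Another 6 members of this class had under 10 reads each.

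The enzymes that shape and take down the granule showed few calls. Isoamylases trim misplaced branches or, for isoamylase 3, act in breakdown, and none of the 3 was called. Isoamylase 1 (comp32256_c1) was at 13.2 RPKM in CH and 13.8 RPKM in CK. Phosphoglucan, water dikinase adds phosphate that loosens the granule surface, and its main unigene comp16138_c0 was at 30.2 RPKM in CH and 31.3 RPKM in CK. A shorter unigene with that name, comp36518_c0, was at 13.2 RPKM in CH and 25.8 RPKM in CK and was not called. Of the phosphoglucan phosphatase-type proteins, LSF1 (comp29512_c0), needed for normal starch breakdown in Arabidopsis, was called lower on few reads, 58 (1.49 RPKM) in CH and 89 (3.08 RPKM) in CK, 2.32-fold (1.65 to 3.29). That call was lost under both other scalings. DSP4 (comp32924_c0) and LSF2 (comp36159_c0) were not called.

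The 16 amylase unigenes held 38,274 reads in CH and 22,451 reads in CK, a ratio of 1.13 per library total (1.11 to 1.15). Of the 15 with at least 10 reads, 1 was called. The alpha-amylases cut inside glucan chains, and 0 of 6 were called. The most abundant of that name, comp32498_c0, was at 102 RPKM in CH and 74.2 RPKM in CK. Its name, alpha-amylase isozyme C, is in doubt: its Nr hit names no enzyme, and its COG class is not that of carbohydrate metabolism alone. The class stood at a ratio of 1.12, CH over CK (1.09 to 1.16), with it and 0.908 (0.868 to 0.95) without it, so the direction of this class rests on it. Without all 3 unigenes of that name the amylases together stood at 1.10 (1.08 to 1.12). The chloroplast form alpha-amylase 3 (comp36917_c0), with COG class G, was at 45.8 RPKM in CH and 52.5 RPKM in CK.

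Beta-amylases release maltose from chain ends. The call in this class was comp37429_c0, with a best hit to the beta-amylase of white clover, *Trifolium repens*. It had 102 reads (1.95 RPKM) in CH and 1567 reads (46.4 RPKM) in CK, 23.3-fold lower in CH (19.0 to 28.7), the widest difference among the members. Of the 24 called members it alone kept its call under every alternative test, scaling and threshold tried. Beta-amylase 3 (comp37791_c0), the main chloroplast form of leaf starch breakdown in Arabidopsis, was the most abundant. Its reads were 10,184 in CH and 4060 in CK, a 1.66-fold higher share in CH (1.60 to 1.72), while its level was 163 RPKM in CH and 119.8 RPKM in CK. The 2 scales differ because the length averaged over its 4 transcripts was 2401 bases in CH and 1997 bases in CK. The inactive family member beta-amylase 9 (comp35820_c0) was at 122 RPKM in CH and 116 RPKM in CK, and beta-amylase 1 (comp24886_c0) at 103 RPKM in CH and 91.6 RPKM in CK. Beta-amylase 7 (comp35179_c0) and 8 (comp38305_c1), which carry a DNA-binding domain in Arabidopsis, were at 23.2 and 34.7 RPKM in CH and at 17.9 and 26.9 RPKM in CK. None of these was called.

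Among the enzymes that make sucrose, calls went in both directions. Sucrose-phosphate synthase joins UDP-glucose to fructose 6-phosphate. A unigene named sucrose-phosphate synthase 4, comp20652_c0, had 2638 reads (30.3 RPKM) in CH and 5036 reads (87.6 RPKM) in CK, 2.89-fold lower in CH (2.76 to 3.03). The unigene of sucrose-phosphate synthase 1, comp37141_c0, had 5987 reads (61.4 RPKM) in CH and 2335 reads (36.3 RPKM) in CK, 1.69-fold (1.61 to 1.78), and was not called. A minor unigene of that name, comp36197_c0, was called higher on 190 reads (3.48 RPKM) in CH and 58 reads (1.47 RPKM) in CK, 2.16-fold (1.61 to 2.96). The order of the 2 main forms was thus opposite in the libraries: comp37141_c0 held 67.7% of the class reads in CH (66.7 to 68.7) and 31.4% in CK (30.3 to 32.5), and comp20652_c0 held 29.8% in CH and 67.7% in CK. Sucrose-phosphatase, the last step, was not called. Its main unigene comp31026_c0 was at 18.4 RPKM in CH and 24.3 RPKM in CK.

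**Figure D3:**
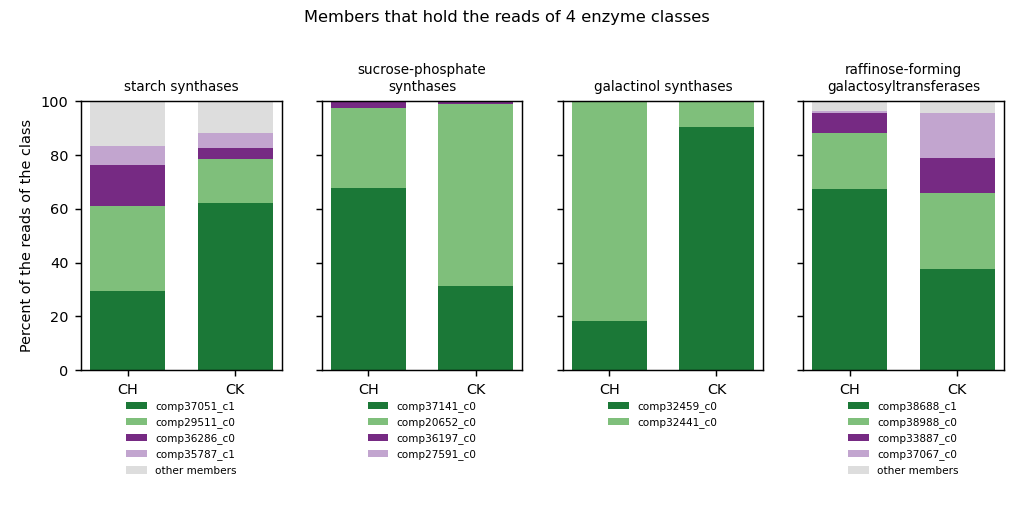
Stacked bars give the percent of the reads of each of 4 enzyme classes that fell on each member, in CH and in CK, 1 library per group. In galactinol synthases comp32441_c0 held 81.6% in CH and 9.49% in CK, and in sucrose-phosphate synthases comp20652_c0 held 29.8% in CH and 67.7% in CK.

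Sucrose cleavage also held calls of both signs. Sucrose synthases split sucrose reversibly into fructose and UDP-glucose. The unigene comp40012_c0 was at 72.9 RPKM in CH and 46.3 RPKM in CK, and comp35458_c0 at 51.5 RPKM in CH and 65.9 RPKM in CK. The first was the highest of the class in CH and the other in CK, and neither was called. The lowest of the 5, sucrose synthase 6 (comp32518_c0), was called lower on 57 reads (0.78 RPKM) in CH and 86 reads (1.78 RPKM) in CK, 2.28-fold (1.62 to 3.25). The 5 include comp33611_c1, which was not called. Its KEGG ortholog differs from that shared by the others and its Nr hit names no enzyme, so its name is in doubt.

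Alkaline/neutral invertases hydrolyse sucrose outside the vacuole and the cell wall. Among several unigenes named CINV2, comp32125_c0 rose in CH. It had 4357 reads (61.3 RPKM) in CH and 849 reads (18.1 RPKM) in CK, 3.39-fold higher in CH (3.15 to 3.65). Its share of the class was 32.4% in CH and 12.0% in CK. The most abundant CINV2 unigene, comp32804_c0, was at 70.4 RPKM in CH and 82.0 RPKM in CK and was not called, nor were the remaining 4 of this class with at least 10 reads.

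Acid invertases work in the vacuole or, as insoluble forms, in the cell wall. A pair of soluble-type unigenes from the same component fell in CH. The longer, comp38844_c1, had 428 reads (9.29 RPKM) in CH and 871 reads (28.7 RPKM) in CK, 3.08-fold lower (2.74 to 3.47). The shorter, comp38844_c0, had 33 reads (2.58 RPKM) in CH and 113 reads (13.5 RPKM) in CK, 5.18-fold lower (3.49 to 7.89). The most abundant acid form, comp38483_c0, was at 91.3 RPKM in CH and 146 RPKM in CK, a 1.60-fold difference (1.54 to 1.66) below the threshold. Of the cell wall type CWINV1, comp27520_c0 was at 28.5 RPKM in CH and 27.0 RPKM in CK, and comp24811_c0 at 4.17 RPKM in CH and 4.32 RPKM in CK.

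In trehalose metabolism, synthase calls were mixed and both phosphatase calls were lower. Trehalose-phosphate synthase makes trehalose 6-phosphate. In Arabidopsis TPS1 has this activity, while the second class, TPS5 to TPS11, is thought to act in regulation. The main TPS1 unigene, comp34316_c1, had 2693 reads (27.4 RPKM) in CH and 4189 reads (64.7 RPKM) in CK, 2.35-fold lower in CH (2.24 to 2.47). Another TPS1-named unigene, comp32977_c0, was at 18.4 RPKM in CH and 18.0 RPKM in CK. TPS11 (comp36452_c0) rose in CH, with 1626 reads (21.6 RPKM) in CH and 509 reads (10.2 RPKM) in CK, 2.11-fold higher (1.91 to 2.34). Of the other members of the second class, TPS7 (comp36154_c2) was at 111.6 RPKM in CH and 61.6 RPKM in CK, 1.73-fold (1.66 to 1.81). TPS9 (comp38093_c0) was at 43.6 RPKM in CH and 26.9 RPKM in CK, and both were under the threshold. TPS6 (comp37344_c2) was at 55.7 RPKM in CH and 47.6 RPKM in CK. TPS5 (comp28469_c0) was lower in CH, at 7.31 RPKM in CH and 9.11 RPKM in CK. Neither TPS6 nor TPS5 was called.

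Trehalose-phosphate phosphatase removes the phosphate and yields trehalose. Summed over 6 members, its reads were 1056 in CH and 1803 in CK, 2.58-fold lower in CH (2.39 to 2.79). The form named A, comp33957_c1, had 723 reads (19.0 RPKM) in CH and 1337 reads (53.4 RPKM) in CK, 2.80-fold lower (2.55 to 3.07). A unigene named D, comp30081_c0, had 84 reads (2.44 RPKM) in CH and 205 reads (9.06 RPKM) in CK, 3.69-fold lower (2.85 to 4.82). Both fell in CH. Form F (comp32281_c0) was at 4.19 RPKM in CH and 7.4 RPKM in CK and was not called.

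**Figure D4:**
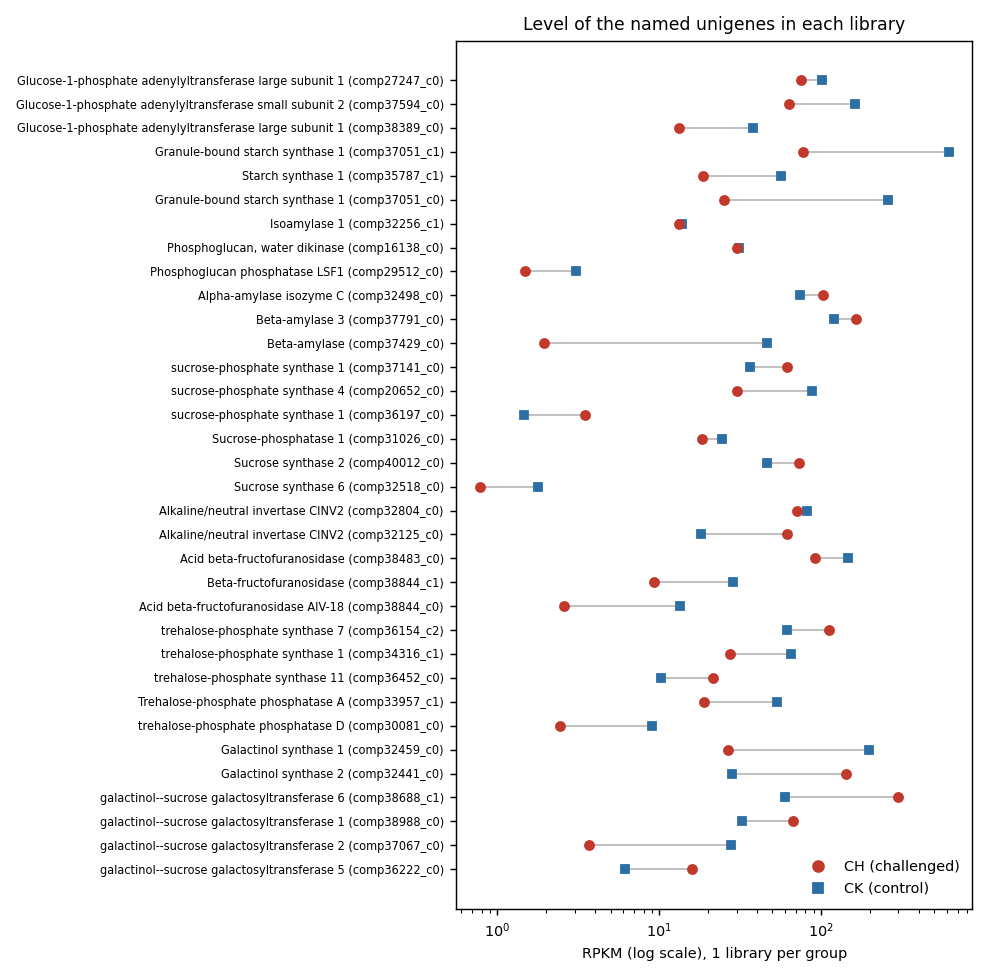
Levels in RPKM on a log axis of the 34 members named by the rule for each enzyme class, in CH (circles) and CK (squares), 1 library per group. The longest line belongs to the beta-amylase comp37429_c0, at 1.95 in CH and 46.4 in CK.

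Unigenes named for the raffinose route held 4 of the 7 higher calls. Galactinol synthase joins galactose to myo-inositol, and its 2 members moved apart. Galactinol synthase 2 (comp32441_c0, best hit in tomato) had 5462 reads (143 RPKM) in CH and 635 reads (28.1 RPKM) in CK, 5.68-fold higher in CH (5.23 to 6.18). Galactinol synthase 1 (comp32459_c0, best hit in *Ajuga reptans*) had 1233 reads (26.7 RPKM) in CH and 6057 reads (199 RPKM) in CK, 7.43-fold lower (6.99 to 7.91). The sum of both was 6695 reads in CH and 6692 reads in CK, 1.51-fold lower in CH per library total (1.46 to 1.57). Galactinol synthase 2 held 81.6% of these reads in CH (80.6 to 82.5) and 9.49% in CK (8.80 to 10.2).

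The unigenes named galactinol--sucrose galactosyltransferase, after the enzyme that passes galactose from galactinol to sucrose, had the highest ratio of summed reads among the 15 classes, 32,678 in CH and 7693 in CK, 2.81-fold higher in CH (2.74 to 2.88). Of 7 members with at least 10 reads, 3 rose, 1 fell and 3 were not called. The unigene named galactosyltransferase 6, comp38688_c1, had 22,008 reads (300.1 RPKM) in CH and 2901 reads (60.0 RPKM) in CK, 5.01-fold higher (4.82 to 5.21). It is the dark-inducible DIN10 in Arabidopsis. Galactosyltransferase 1 (comp38988_c0) had 6777 reads (67.2 RPKM) in CH and 2163 reads (32.5 RPKM) in CK, 2.07-fold higher (1.97 to 2.17). Number 5 of the family (comp36222_c0), a raffinose synthase in Arabidopsis, was 2.63-fold higher in CH (2.30 to 3). It had 1129 reads (16.0 RPKM) in CH and 284 reads (6.10 RPKM) in CK. These were 3.45% of the class reads in CH and 3.69% in CK. The Nr hit of a minor unigene also named number 6, comp1750087_c0, names a seed imbibition protein. Whether comp38688_c1 and comp38988_c0 form raffinose was not tested, so the class ratio is not a measure of raffinose synthesis.

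The member that fell, comp37067_c0, is named galactosyltransferase 2, which in Arabidopsis acts as an alkaline alpha-galactosidase and so splits raffinose rather than making it. It had 257 reads (3.66 RPKM) in CH and 1297 reads (27.8 RPKM) in CK, 7.64-fold lower in CH (6.68 to 8.77). A second unigene with the same name, comp33887_c0, was at 37.4 RPKM in CH and 23.1 RPKM in CK, a 1.63-fold higher share of reads (1.51 to 1.75), and was not called. Its Nr hit names only a hydrolase. Without both unigenes of this name the class stood at a ratio of 3.67, CH over CK (3.56 to 3.78). The share of class reads on comp38688_c1 was 67.3% in CH and 37.7% in CK, and that on comp37067_c0 was 0.786% in CH and 16.9% in CK.

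Without the test, 9 of the 77 members with at least 10 reads (11.7%) were at least 2-fold higher in RPKM in CH and 18 (23.4%) at least 2-fold lower, beside 9.57% and 12.9% of all unigenes at that depth. So 3 members differed at least 2-fold in RPKM without passing the test, all on few reads. These were the sucrose-phosphate synthase comp27591_c0 with 30 reads in CH and 9 in CK, the invertase comp530579_c0 with 8 in CH and 2 in CK, and the galactosyltransferase comp26801_c0 with 19 in CH and 28 in CK. The 24 members with under 10 reads had at most 7 reads each and a median length of 284.5 bases, and 1 had no read. The best Nr hit was in Brassicaceae for 14 of these 24, against 1 of the 77 members with at least 10 reads.

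Neighbouring steps of the pathway, 46 unigenes of 15 kinds of enzyme chosen by role, were tested in the same way. Of 39 with at least 10 reads, 3 were higher (7.69%) and 3 lower (7.69%), beside 4.54% and 7.71% of all unigenes at that depth, so the lower calls were at the background share. Their summed reads were 48,481 in CH and 31,674 in CK, a ratio of 1.01 per library total (0.997 to 1.03). Stachyose synthase (comp38810_c1), which adds a further galactose to raffinose, had 570 reads (7.58 RPKM) in CH and 67 reads (1.35 RPKM) in CK, 5.62-fold higher in CH (4.36 to 7.35). Alpha-galactosidase, which removes galactose again, was lower in 1 of 4 unigenes, comp28416_c0, with 5 reads in CH and 75 in CK, 22.7-fold (9.31 to 71.9). The highest in RPKM, comp32458_c0, was at 32.0 RPKM in CH and 26.9 RPKM in CK and was not called. Most reads fell on the long unigene comp39140_c0, at 12.2 RPKM in CH and 13.0 RPKM in CK, but its Nr hit names a phosphatidylinositol kinase, so its name is in doubt.

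Plastid phosphoglucomutase (comp27624_c0), which supplies glucose 1-phosphate for ADP-glucose, had 1092 reads (18.5 RPKM) in CH and 2124 reads (54.5 RPKM) in CK, 2.94-fold lower in CH (2.74 to 3.17). Chloroplast-type hexokinase-2 (comp35498_c0) was lower as well, with 280 reads in CH and 417 in CK, 2.25-fold (1.93 to 2.63). The most abundant hexokinase, comp30106_c0, was at 67.3 RPKM in CH and 54.9 RPKM in CK and was not called. All hexokinases together stood at a ratio of 1.17, CH over CK (1.13 to 1.22). That sum includes comp32174_c1, with 1044 reads in CH and 726 in CK. Its Nr hit names a Sec14p-like phosphatidylinositol transfer protein, so its name is in doubt. It also includes comp1186033_c0, on very few reads, whose Nr hit was to a fungus. The beta-1 regulatory subunit of the SNF1-related kinase, an energy sensor, was higher. Its unigene comp37869_c0 had 8175 reads (186 RPKM) in CH and 2244 reads (77.6 RPKM) in CK, 2.41-fold (2.30 to 2.52), whereas the catalytic subunit KIN10 (comp28004_c0) was at 66.0 RPKM in CH and 67.1 RPKM in CK. The last higher call, an alpha-glucosidase unigene (comp28491_c0), had 18 reads in CH and 0 in CK, at least 3.96-fold higher in CH against a floor of 3 reads per library, and its best Nr hit was to a green alga.

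Fructokinase, trehalase, pullulanase, the disproportionating 4-alpha-glucanotransferases, the H form of glucan phosphorylase, the maltose exporter, glucose-6-phosphate isomerase and both pyrophosphorylases of UDP-sugars had no call. Among them UDP-glucose pyrophosphorylase (comp36345_c0) was nearest to the threshold, at 21.8 RPKM in CH and 40.6 RPKM in CK, 1.94-fold (1.77 to 2.13). Starch branching enzymes, glucan, water dikinase and the L forms of glucan phosphorylase fall outside both lists because their Swiss-Prot names lack the words searched, and they were looked up after the other values were seen. A branching enzyme, comp38564_c1, had 764 reads (12.7 RPKM) in CH and 1432 reads (36.0 RPKM) in CK, 2.84-fold lower in CH (2.60 to 3.10). A short contig of the same component, comp38564_c0, was lower too, with 44 reads in CH and 104 in CK, 3.58-fold (2.49 to 5.21). The branching enzymes comp28650_c0, at 41.8 RPKM in CH and 29.9 RPKM in CK, and comp37669_c0, at 5.56 RPKM in CH and 7.03 RPKM in CK, were not called. The phosphorylases comp37926_c1, at 56.2 RPKM in CH and 71.3 RPKM in CK, and comp33099_c0, at 7.71 RPKM in CH and 13.0 RPKM in CK, were not called either, like the dikinase comp38951_c1 at 33.3 RPKM in CH and 18.5 RPKM in CK.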

How the data were processed

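Both libraries were paired-end Illumina HiSeq runs on mixed leaf RNA. The authors filtered the reads, assembled both libraries together with Trinity and mapped the reads back. The counting program was not given in the sources used here. The submitters' processing notes name DESeq. The deposited expected counts are not normalized. The deposited RPKM divides them by effective length and library total, and values recomputed that way deviated by at most 0.106% above 5 RPKM. The TPM scaled by the authors was not used. A length is the mean of the transcripts of a unigene in that library. Names come from the deposited text of database hits.

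Expected counts were rounded to whole reads, and 2-sided Audic-Claverie p values were corrected by Benjamini-Hochberg over 43,302 unigenes. Folds against 0 reads used a floor of 3 reads. Alternatives were edgeR's exact test with a dispersion blind to the groups or an assumed coefficient of variation of 0.2 or 0.4, TMM and median-of-ratios scaling, a 4-fold threshold, minimums of 1, 10 or 50 reads, pseudocounts of 0.1 and 1, and members with a eudicot hit only, which left out none. Class ratios without members of doubtful name, and the ratio of all members without comp37051_c1, were added after seeing the data.

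In each class the most abundant member and up to 3 called members in each direction, ordered by the interval bound nearest to 1, were named, which gave 34 unigenes. The rule for the neighbouring enzymes was the most abundant unigene and up to 1 call in each direction. All their calls are named, but the most abundant unigene only for some of these enzymes. Further members were named after their values were seen, to account for each class. Members, classes, neighbouring enzymes and leaf markers were chosen with earlier results of these data known. Unigenes named 6-phosphofructokinase were left out of the fructokinases. No sequence is shown, since none was among the files used. Python 3.11.15, numpy 2.4.6, pandas 2.3.3, scipy 1.17.1, matplotlib 3.10.9, R 4.3.3 and edgeR 4.0.16 were used.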

Additional observations from a re-analysis of the deposited data

How the results depend on the processing

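With 1 library per group, the spread between plants is unknown, and alternatives that assume one removed many calls. The 7 higher and 17 lower calls became 3 and 9 with edgeR at an assumed coefficient of variation of 0.2. At 0.4 they became 0 and 1, and with the dispersion blind to the groups 0 and 2. The blind test used a dispersion that followed a trend with abundance. The common coefficient of variation of 0.407 describes the whole table and was not the value tested with. At an unadjusted p below 0.05 these tests counted 7 higher and 17 lower at 0.2, 3 and 7 at 0.4, and 4 and 12 with the blind dispersion. A 4-fold threshold left 2 and 6. TMM and median-of-ratios scaling gave 7 and 16 each, and the lost call was LSF1. These scalings multiply every ratio by 1.04 and 1.06, which moved 12 of 15 class ratios past their counting interval and changed the direction of no class. Testing unigenes with at least 10 reads gave 7 and 17. Restriction to eudicot hits left out no member and so tests nothing. The median log2 ratio of -0.10 became -0.21 with all members of at least 1 read, where members with very few reads enter, and stayed between -0.14 and -0.02 under the other alternatives. Among the unigenes named by the rule, 2 that were not called changed sign under scaling. The first, comp16138_c0, with a log2 ratio of -0.05, stood at 0.003 with TMM and 0.03 with the median of ratios. The other, comp32256_c1, at -0.06, stood at 0.02 with the median of ratios. Members named outside the rule were not rerun. Of these, comp36286_c0 at -0.073 and comp24811_c0 at -0.051 have log2 ratios smaller in size than the median-of-ratios shift of 0.078. In alternatives chosen after seeing the data, the alpha-amylase ratio of 1.12 turned to 0.908 without comp32498_c0 and 0.916 without all 3 unigenes named isozyme C. Counting precision limits the members with few reads most: no difference could be read for the 24 with under 10. No paired analysis was possible because each group holds 1 library.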
